A study of Mus musculus with 6 samples.

Results

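The mouse genes for the Fc gamma receptors and the proteins that carry their signal were followed in RNA of aortic arch plaque from mice given ABT263 or vehicle. The 7 genes are the receptors Fcgr1, Fcgr2b, Fcgr3 and Fcgr4, the signalling chain Fcer1g, and the kinases Syk and Fgr. They were chosen by symbol from the 24062 symbols of the table of counts, and all 7 were found there and passed the filter on low counts. Bulk RNA was sequenced from 6 samples, 3 per group. The ABT263 group held C57BL/6 mice lacking the low-density lipoprotein receptor, a strain made prone to atherosclerosis by the loss of the receptor that clears that lipoprotein from blood. High-fat food (TD88137) was given over 12 weeks, and 3 weeks of low-fat food followed. ABT263 went in as daily intraperitoneal injections of 100 mg/kg, which the labels date to week 1 of the low-fat period. The vehicle group had the same knockout, strain and diets and received vehicle. The lipoprotein receptor knockout is therefore shared by both groups, and the sources used here give neither sex nor age. ABT263 (navitoclax) blocks the anti-apoptotic proteins BCL-xL, BCL-2 and BCL-w and serves in mice to clear senescent cells.

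Fc gamma receptors bind the constant part of IgG and so let white blood cells respond to antibody-coated particles and immune complexes. The activating receptors of the mouse (Fcgr1, Fcgr3 and Fcgr4) sit in the membrane with a dimer of the Fcer1g chain. Kinases of the Src family, Fgr among them, phosphorylate tyrosines in the activation motif (ITAM) of that chain, and Syk docks on them and passes the signal on. Fcgr2b has an inhibitory motif (ITIM) in its own tail and opposes the other receptors by recruiting the lipid phosphatase encoded by Inpp5d. In plaque these receptors are known mainly from macrophages, where they take up immune complexes, including those formed with oxidised lipoprotein.

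Fcgr2b, Fcgr4, Fcgr3 and Fcer1g lie within 276 kb of chromosome 1 (positions 170958617 to 171234365, mm10). Fcgr1 lies on chromosome 3 (96282909 to 96293969), Fgr on chromosome 4 (132974095 to 133001910) and Syk on chromosome 13 (52583173 to 52648792). Of the 7 genes, only Fcgr2b had exons overlapping those of another gene, an antisense transcript, and the libraries did not mark strand. Fcgr2b and Fcgr3 are also alike in sequence, which bears on how their reads could be told apart. Of the 50-base words in their protein-coding transcripts, 6.72% for Fcgr2b and 10.2% for Fcgr3 also occurred in transcripts of another gene, and for the other 5 genes none did. The coding exons below, exon 6 of an Fcgr2b transcript and exon 4 of an Fcgr3 transcript, are the most similar pair of equal length. They are 255 bases long, both on the minus strand (GENCODE M21, GRCm38), and are shown to let the likeness be seen. Capitals mark the 5 positions at which they differ, and the longest identical run is 113 bases.
Fcgr2b, chr1:170966446-170966700: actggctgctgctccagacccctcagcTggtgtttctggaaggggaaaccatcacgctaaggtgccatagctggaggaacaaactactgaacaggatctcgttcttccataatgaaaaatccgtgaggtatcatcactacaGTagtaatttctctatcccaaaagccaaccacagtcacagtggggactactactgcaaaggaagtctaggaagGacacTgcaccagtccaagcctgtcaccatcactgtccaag
Fcgr3, chr1:171053939-171054193: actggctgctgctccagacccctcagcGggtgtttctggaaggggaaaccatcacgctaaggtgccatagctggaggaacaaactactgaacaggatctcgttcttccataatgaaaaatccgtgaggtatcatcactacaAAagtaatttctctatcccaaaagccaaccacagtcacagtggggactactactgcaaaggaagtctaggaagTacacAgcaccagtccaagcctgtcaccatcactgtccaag

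Fcgr1 and Fcgr4 shared the steepest differences between the libraries, as given below, so the 250 bases before their starts are shown as well. The sequences are from RefSeq (GRCm38.p6), Fcgr1 on the minus and Fcgr4 on the plus strand, and all 7 genes had an entry in that table. Capitals mark matches, on either strand, to the gamma interferon activation site TTCNNNGAA, to the core of the interferon-stimulated response element, which is GAAA, any 2 bases and GAAA, and to the core of sites for the myeloid factor PU.1, GAGGAA. The window of Fcgr1 held a TTCNNNGAA match that begins 109 bases before the start, a motif found in 7.02% of 32851 promoter windows of this length. The window of Fcgr4 held a match to the interferon-stimulated response core beginning 73 bases before the start, a motif found in 2.98% of the windows. None of the other members' windows held either motif. GAGGAA, present in 23.3% of windows, occurred in the windows of Fcgr1, Fcgr3, Fcgr4 and Syk. The matches printed do not overlap, and a match is a description of letters only.
Fcgr1, chr3:96293970-96294219: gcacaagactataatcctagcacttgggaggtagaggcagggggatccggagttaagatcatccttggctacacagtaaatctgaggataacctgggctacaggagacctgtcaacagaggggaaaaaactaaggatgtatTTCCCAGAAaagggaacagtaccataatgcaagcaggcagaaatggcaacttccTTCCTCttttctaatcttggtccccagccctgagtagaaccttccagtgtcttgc
Fcgr4, chr1:171018676-171018925: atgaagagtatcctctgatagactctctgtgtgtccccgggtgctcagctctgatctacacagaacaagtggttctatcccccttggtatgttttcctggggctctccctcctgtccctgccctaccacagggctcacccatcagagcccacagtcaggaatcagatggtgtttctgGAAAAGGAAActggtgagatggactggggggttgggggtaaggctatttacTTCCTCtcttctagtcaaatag

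Library totals ran from 62930547 to 91688075 counts with ABT263 and from 67236568 to 110452098 with vehicle. Several libraries stood apart. White adipocyte markers summed to 4169 CPM (counts scaled to a common library size) in ABT263 replicate 2, against 83.6 to 296 CPM in the other 5 libraries, and mast cell markers to 130 CPM there, against 7.75 to 23.9 CPM. Skeletal muscle markers summed to 41.8 CPM in ABT263 replicate 3, against 4.16 to 6.37 CPM in the others. Vehicle replicate 2 had interferon gamma response genes summing to 4749 CPM, against 474 to 708 CPM in the other libraries. Counts of the precursor of ribosomal RNA, Rn45s, made up 0.332%, 0.304% and 0.334% of the ABT263 libraries, against 0.542%, 1.74% and 0.553% of the vehicle libraries. Endothelial markers summed to 494 CPM in vehicle replicate 2, against 1673 to 5004 CPM elsewhere. Where leaving out 1 library moved a median or ratio below by over 1.5 times, values without it are given beside it or as a range in the closing section. Macrophage markers, which define the cells expected to carry these receptors, were abundant in all 6 libraries, Cd68 for instance standing at 271 to 771 CPM with ABT263 and 758 to 1168 CPM with vehicle.

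All 7 genes were lower on average with ABT263, with log2 fold changes from -1.80 (Fcgr4) to -0.44 (Fgr), and none passed the test. The edgeR quasi-likelihood test called 0 of the 7, and lower calls made up 0% of the 15222 genes tested. Benjamini-Hochberg adjusted p-values of the members ran from 0.592, also the smallest of the table, to 0.837. At an unadjusted p under 0.05 stood 3 members, all receptors (Fcgr1, Fcgr2b and Fcgr4), where 3.68% of all genes were lower at that level and 4.7% higher. The same 3 were lower in every ABT263 library than in any vehicle library, against 6.31% of all genes. DESeq2, by which 0.523% of genes with an adjusted p were lower, called no member. Limma-voom called none either, and by it 0% of genes were lower. In either direction, 5.62% of genes stood at an unadjusted p under 0.05 by limma-voom. The smallest member adjusted p was 0.097 for Fcgr4 by DESeq2. Of all genes tested, 49.9% had a negative log2 fold change. In bulk tissue, fewer cells of a type and less RNA per cell cannot be told apart. Counts per member and library ran from 1877 to 85640, so that counting error was at most 2.31% of a value and the spread between samples exceeded it.

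**Figure D1:**
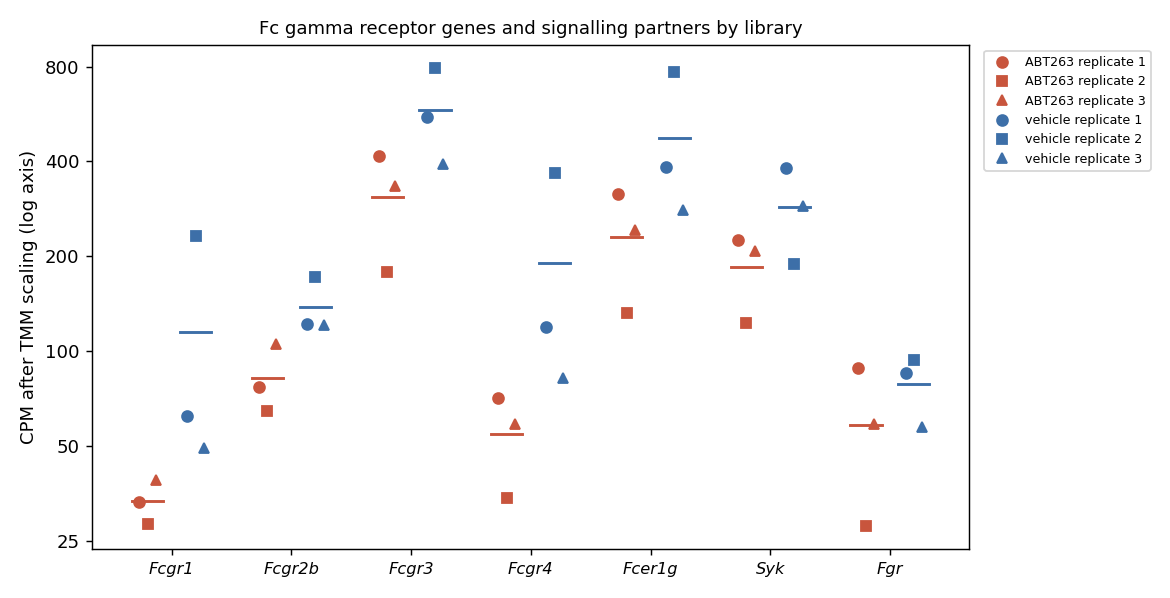
CPM after TMM scaling, on a log axis, of the 7 genes in each library, ABT263 in red to the left of vehicle in blue, with symbols for replicates and bars at the group means. Fcgr1, Fcgr2b and Fcgr4 do not overlap between the groups, and vehicle replicate 2 (blue square) stands at 232 CPM for Fcgr1 and 368 CPM for Fcgr4.

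Fcgr1 encodes the high-affinity receptor (CD64) of macrophages and monocytes, which binds monomeric IgG. It stood at 33.1, 28.3 and 38.9 CPM in ABT263 replicates 1 to 3, against 62.4, 232 and 49.4 CPM in vehicle replicates 1 to 3. The ABT263 libraries lay close together, and the vehicle libraries were spread by vehicle replicate 2, which was 4.15 times the mean of the other vehicle libraries. Group means were 33.4 ± 5.32 CPM with ABT263 and 115 ± 102 CPM with vehicle (SD, n = 3 each), a log2 fold change of -1.78 (SE 0.60, edgeR adjusted p = 0.592). Without vehicle replicate 2 the log2 fold change was -0.74 (SE 0.19). Leaving out the highest vehicle library cannot bring about an overlap, and 14.3% of all genes were then lower without overlap.

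Fcgr4 encodes an activating receptor of intermediate affinity found on macrophages, monocytes and neutrophils. Its CPM values were 70.9, 34.2 and 58.8 with ABT263, against 119, 368 and 81.9 with vehicle. Every ABT263 library was below every vehicle library, and vehicle replicate 2 was again highest, at 3.66 times the mean of the other vehicle libraries. Means were 54.6 ± 18.7 CPM with ABT263 and 190 ± 156 CPM with vehicle (SD, n = 3 each), with a log2 fold change of -1.80 (SE 0.61, edgeR adjusted p = 0.592). Leaving out vehicle replicate 2 gave -0.88 (SE 0.35). Of all genes tested, 1.69% had a log2 fold change as low as that of Fcgr4 and 1.72% as low as that of Fcgr1.

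Fcgr3 encodes the low-affinity activating receptor (CD16), which macrophages, neutrophils, mast cells and NK cells carry. It had 416, 178 and 333 CPM with ABT263, against 555, 795 and 393 CPM with vehicle, the highest CPM of the 4 receptors in every library. ABT263 replicate 1 exceeded vehicle replicate 3, so the groups overlapped. Fcgr3 averaged 309 ± 121 CPM with ABT263 and 581 ± 202 CPM with vehicle (SD, n = 3 each), a log2 fold change of -0.91 (SE 0.41, edgeR adjusted p = 0.601). Leaving out ABT263 replicate 2, the library of lowest value, gave -0.63, and leaving out vehicle replicate 2 instead gave -0.62.

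Fcgr2b encodes the inhibitory receptor, the Fc gamma receptor that B cells also use. CPM values of 76.9, 64.6 and 105 were measured with ABT263, against 122, 172 and 121 with vehicle. The groups did not overlap, and the vehicle libraries differed among themselves less than they did for the activating receptors. The means were 82.1 ± 20.7 CPM with ABT263 and 138 ± 29.2 CPM with vehicle (SD, n = 3 each), and the log2 fold change was -0.75 (SE 0.26, edgeR adjusted p = 0.592). Without vehicle replicate 2 it was -0.56. The value is uncertain to the extent that reads of Fcgr3, several times as abundant in CPM, were assigned to the exons alike in sequence.

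Fcer1g, the shared ITAM chain, also serves the high-affinity IgE receptor of mast cells and several lectin receptors. It stood at 315, 132 and 243 CPM with ABT263, against 383, 767 and 280 CPM with vehicle. The groups overlapped through ABT263 replicate 1 and vehicle replicate 3, and vehicle replicate 2 was highest. Its mean was 230 ± 91.8 CPM with ABT263 and 476 ± 257 CPM with vehicle (SD, n = 3 each), and its log2 fold change was -1.05 (SE 0.48, edgeR adjusted p = 0.601), or -0.53 without vehicle replicate 2. The mast cell proteases Mcpt4 and Cma1 stood at 41.9 and 36.6 CPM in ABT263 replicate 2 and at no more than 0.434 CPM in any other library, while that library had the lowest Fcer1g. The part of mast cells in the level of Fcer1g was not tested.

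Syk, the tyrosine kinase that docks on phosphorylated ITAMs, had another order of libraries. It stood at 226, 122.6 and 207 CPM with ABT263, against 380, 189 and 289 CPM with vehicle. Vehicle replicate 2, highest for the receptors and Fcer1g, was the lowest vehicle library for Syk, at 0.565 times the mean of the other vehicle libraries. Syk averaged 185 ± 55.0 CPM with ABT263 and 286 ± 95.6 CPM with vehicle (SD, n = 3 each), with a log2 fold change of -0.63 (SE 0.35, edgeR adjusted p = 0.669). Without vehicle replicate 2, the lowest vehicle library for Syk, the value was -0.85 (SE 0.32, edgeR adjusted p = 0.626). The groups then did not overlap, as was the case for 14.3% of all genes in that direction.

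Fgr, a Src family kinase of myeloid cells, had the smallest difference of the 7. Values were 88.1, 27.8 and 58.5 CPM with ABT263, against 85.2, 93.7 and 57.3 CPM with vehicle, so that only ABT263 replicate 2 lay below the vehicle libraries. The log2 fold change was -0.44 (SE 0.42, edgeR adjusted p = 0.837). It was -0.098 without ABT263 replicate 2, and with vehicle replicate 2 left out as well it turned to 0.042 (SE 0.30).

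**Figure D2:**
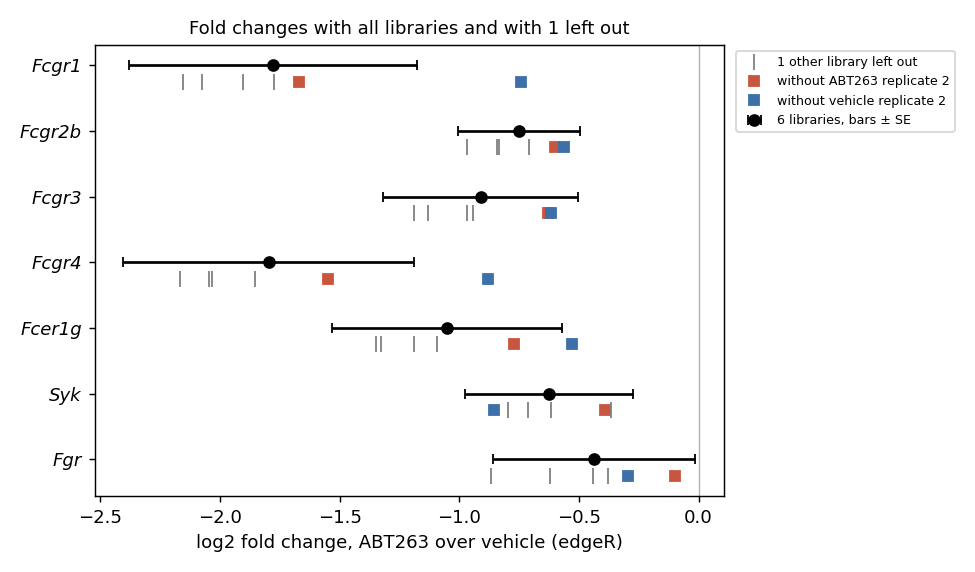
The log2 fold changes (ABT263 over vehicle, edgeR) of the 7 genes with all 6 libraries (black, bars ± SE) and with each library left out in turn (marks below). Leaving out vehicle replicate 2 (blue) moves Fcgr1 to -0.74 and Fcgr4 to -0.88, and leaving out ABT263 replicate 2 (red) moves Fgr to -0.098.

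The balance of activating to inhibitory receptor RNA was compared as the log2 ratio of CPM to Fcgr2b within each library, which does not depend on scaling between libraries. For Fcgr1 the ratio was -1.22, -1.19 and -1.43 with ABT263, against -0.96, 0.43 and -1.29 with vehicle, a difference in means of -0.67 (exact permutation p = 0.3, two-sided) that was -0.15 without vehicle replicate 2 and -1.01 without vehicle replicate 3. The ratio of Fcgr4 was -0.12, -0.92 and -0.84 with ABT263, against -0.031, 1.10 and -0.56 with vehicle (difference -0.79, exact permutation p = 0.2). Without vehicle replicate 2 that difference was -0.33, and without ABT263 replicate 2 as well it was -0.18. That of Fcgr3 was 2.44, 1.46 and 1.67 with ABT263, against 2.19, 2.21 and 1.70 with vehicle (difference -0.18, exact permutation p = 0.7). All 3 overlapped between the groups, and the smallest p that 3 against 3 allows is 0.1. In vehicle replicate 2 alone, Fcgr1 and Fcgr4 both exceeded Fcgr2b in CPM, at 1.35 and 2.14 times its value. CPM is not scaled to gene length, so these ratios do not rank the receptors by level. Per kilobase of exon, Fcgr4 exceeded Fcgr2b in every library, and Fcgr1 did so only in vehicle replicate 2. For the sum of the 3 activating receptors the ratio to Fcgr2b was 6.77, 3.72 and 4.11 with ABT263, against 6.05, 8.12 and 4.34 with vehicle, and the difference of its log2 means was -0.35 (exact permutation p = 0.4). Without both vehicle replicate 2 and ABT263 replicate 2 that difference was 0.041. These 6 libraries thus showed no difference in the balance that held up against the spread between samples.

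**Figure D3:**
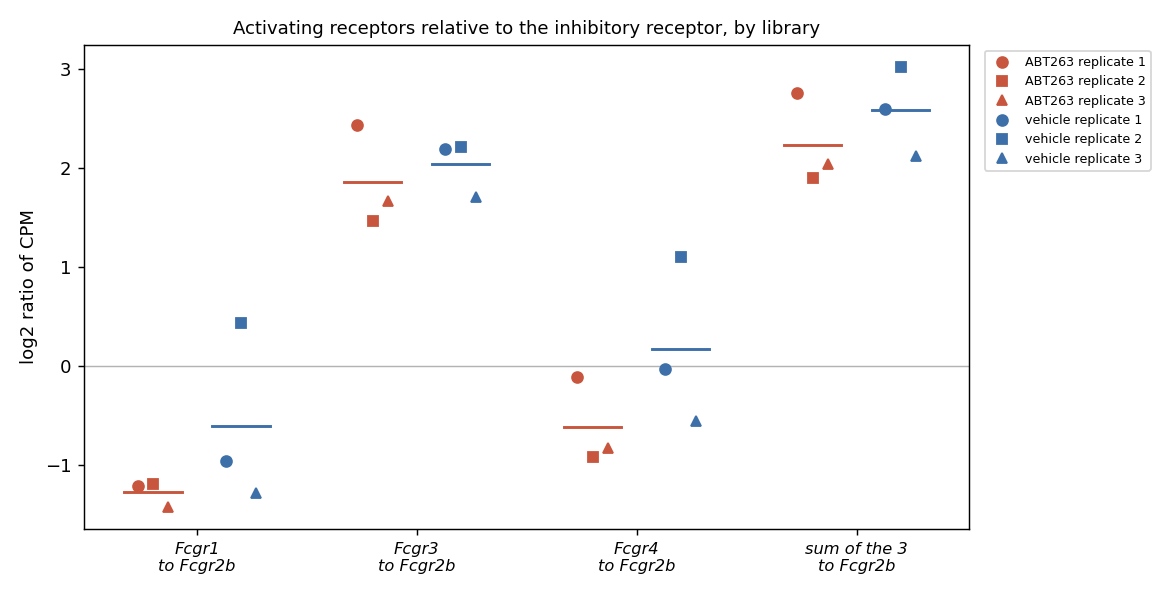
Log2 ratio of CPM of each activating receptor, and of their sum, to the inhibitory receptor Fcgr2b in every library, ABT263 in red to the left of vehicle in blue, bars at group means. Groups overlap for each ratio, and vehicle replicate 2 has the highest ratios of Fcgr1 (0.43) and Fcgr4 (1.10). Ratios are not per length.

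Levels of different genes were compared as CPM per kilobase of exon in protein-coding transcripts. Fcer1g had the highest level per kilobase, 307 ± 122.7 with ABT263 and 637 ± 343 with vehicle (SD, n = 3 each). Fcgr3 followed at 190 ± 74.3 with ABT263 and 357 ± 124 with vehicle, then Fcgr4 at 43.5 ± 14.9 with ABT263 and 151 ± 124 with vehicle. Fcer1g exceeded Fcgr3, Fcgr3 exceeded Fcgr4, and Fcgr4 exceeded Syk in 6 of 6 libraries. Syk stood at 30.7 ± 9.13 with ABT263 and 47.4 ± 15.9 with vehicle. Fcgr2b stood at 21.6 ± 5.43 with ABT263 and 36.3 ± 7.67 with vehicle. The ranges of both genes overlapped in each group. Within a library, Syk was higher in 3 of 3 ABT263 libraries and in 2 of 3 vehicle libraries. Fgr per kilobase was 15.7 ± 8.13 with ABT263 and 21.2 ± 5.14 with vehicle. By its mean, Fcgr1 was the lowest of the 7 per kilobase with ABT263, at 12.9 ± 2.06, and the fifth with vehicle, at 44.3 ± 39.4. Vehicle replicate 2 had 89.6 and the other vehicle libraries 24.1 and 19.1. Fgr exceeded Fcgr1 in 2 of 3 ABT263 libraries and in 0 of 3 vehicle libraries. With exons of every annotated transcript as the length, Syk stood at 19.8 with ABT263 and 30.5 with vehicle and Fcgr2b at 14.2 with ABT263 and 23.9 with vehicle, below Fgr in the ABT263 group only, and with vehicle Fcgr1 then stood above Syk. The order of the first 3 stayed.

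Macrophage markers were lower with ABT263 too, 14 of 14 with a negative log2 fold change (median -0.76) and 0 of 14 called by edgeR. They summed to 8865 to 16940 CPM with ABT263 and 17690 to 27160 CPM with vehicle. Each member was therefore also expressed relative to the mean log2 CPM of these markers in its own library. Fcgr2b lay at -2.03, -1.68 and -1.81 with ABT263, against -2.24, -1.65 and -1.80 with vehicle, a difference of 0.055 (exact permutation p = 0.9). For Fcgr3 the difference was -0.12, for Fcer1g -0.19, for Syk 0.20 and for Fgr 0.26, with exact permutation p from 0.5 to 0.8. Fcgr1 differed by -0.62 (exact permutation p = 0.5) and Fcgr4 by -0.74 (exact permutation p = 0.3). All 7 overlapped between the groups, and over the 7 tests the smallest adjusted p was 0.875 (exact permutation, Benjamini-Hochberg). The difference of Fcgr1 became 0.028 and that of Fcgr4 -0.15 without vehicle replicate 2. With Ptprc, the pan-leukocyte phosphatase CD45, in place of the macrophage markers, the differences ran from -0.78 (Fcgr4) to 0.21 (Fgr).

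**Figure D4:**
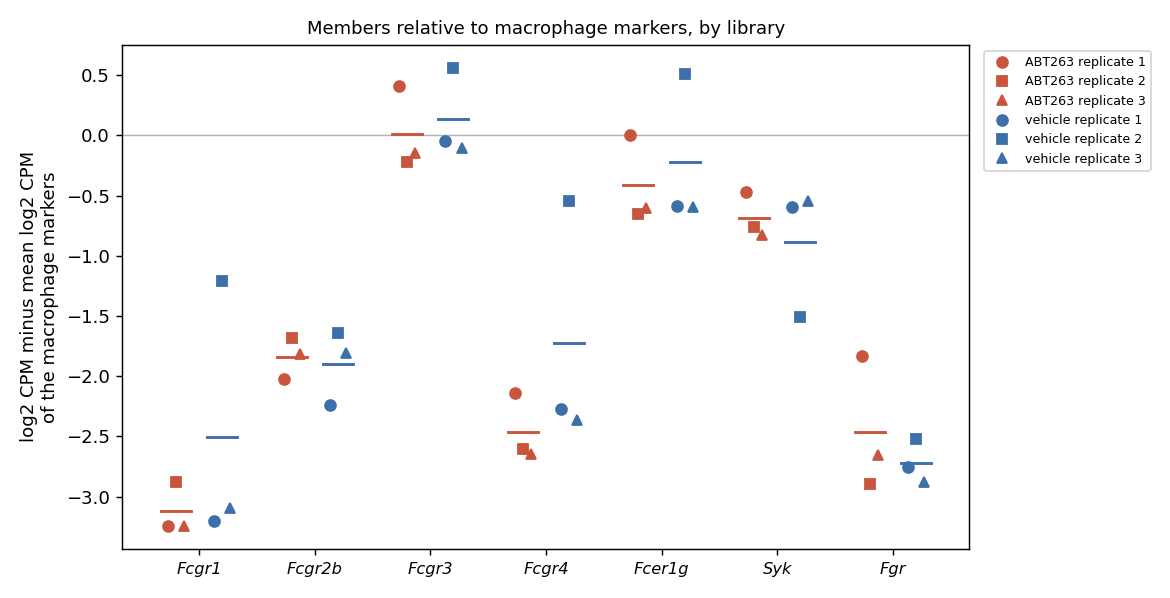
Log2 CPM of each member minus the mean log2 CPM of the macrophage markers of the same library, ABT263 in red to the left of vehicle in blue, bars at group means; heights of different genes are not per length. The groups overlap for all 7 genes, and vehicle replicate 2 lies apart for Fcgr1 (-1.21), Fcgr4 (-0.55), Fcer1g (0.51) and Syk (-1.51).

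Among the members, patterns over the 6 libraries were compared as the root mean square difference of log2 CPM after each gene's mean was taken off. Of the 21 pairs, Fcgr3 and Fcer1g were the most alike (0.16), and Fcgr1 and Fcgr4 stood 0.26 apart. Fcgr1 and Syk were least alike (1.06), followed by Fcgr4 and Syk (1.02). Outside the 7, the genes closest to Fcgr1 of 11801 compared were Ly86 (0.12), the secreted partner of a Toll-like receptor homologue, Rn45s (0.16), Themis2 (0.17), Cd274 (0.19), the ligand PD-L1 of the receptor PD-1, and Gatm (0.21), an enzyme of creatine synthesis. Each of these was highest in vehicle replicate 2, the library with the largest share of Rn45s, and the part of RNA quality in the level of Fcgr1 was not tested. Closest to Fcgr4 were the inhibitory lectin Clec12a (0.15), Zmynd15 (0.20), Hmga2-ps1 (0.25), Bcl2a1d (0.25) and the adaptor Hcst (0.26). To the mean pattern of the 7 members the closest were Fermt3 (0.054), an integrin activator of blood cells, the DNA sensor Aim2 (0.076), Tjp3 (0.085), Hcls1 (0.092) and Rps6ka1 (0.095). These distances are descriptions over 6 libraries.

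Of the genes between Fcgr2b and Fcer1g on chromosome 1, those described here gave values of both signs. Sdhc, a subunit of succinate dehydrogenase, had a log2 fold change of 0.20 (SE 0.26), and Tomm40l, a mitochondrial import gene, of -0.055 (SE 0.28). Pcp4l1 stood at 22.1, 66.4 and 35.1 CPM with ABT263, against 18.5, 13.6 and 12.96 CPM with vehicle, a log2 fold change of 1.46 (SE 0.41, edgeR unadjusted p = 0.0104) with groups that did not overlap, on the higher side where 5.68% of all genes lay. Nr1i3 and Apoa2 were barely detected, with at most 0.337 CPM for Nr1i3 and 0.501 CPM for Apoa2 in any library.

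Beside Fgr, the list of Src family kinases held 7 genes, 6 of them with a negative log2 fold change and none called by edgeR (median -0.84, against 0.001 over all genes tested). The median was -0.51 without vehicle replicate 2 and -0.40 without both that library and ABT263 replicate 2. Lyn, the kinase of B and myeloid cells, stood at 116, 58.9 and 92.2 CPM with ABT263, against 150, 205 and 125 CPM with vehicle (log2 fold change -0.84, SE 0.31). Lck, the kinase of T cells, had -0.94 (SE 0.38) and Blk, the kinase of B cells, -1.81 (SE 0.78).

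Of 32 adaptors and effectors below Syk, 29 had a negative log2 fold change, 11 were lower without overlap between the groups (6.31% of all genes were), and 0 were called by edgeR (median -0.56). Without ABT263 replicate 2 the median was -0.36. Lcp2, the adaptor SLP-76, stood at 39.7, 27.3 and 39.7 CPM with ABT263, against 70.5, 116 and 60.5 CPM with vehicle (log2 fold change -1.21, SE 0.30), all vehicle libraries being higher. Pik3ap1, which links receptors to PI 3-kinase, had -1.04 (SE 0.30) and Vav1, an exchange factor for Rac, -0.95 (SE 0.32). Of 15 genes listed either as phosphatases or as brakes on signalling, 14 were negative, 6 without overlap (6.31% of all genes) and 0 called. Their median was -0.59, or -0.27 without both replicates 2. Inpp5d, the lipid phosphatase that Fcgr2b recruits, stood at 107, 63.5 and 137 CPM with ABT263, against 168, 195 and 164 CPM with vehicle (log2 fold change -0.77, SE 0.30). The groups did not overlap, and the value was close to that of Fcgr2b itself (-0.75) and to the median of the macrophage markers (-0.76). Sla, an adaptor that dampens receptor signalling, had -0.87 (SE 0.24) and Ptprc -0.73 (SE 0.26).

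Of genes listed as ITAM adaptors or as receptors that work through Fcer1g, Tyrobp or Syk, 20 were tested. All had a negative log2 fold change and 0 were called by edgeR (median -0.57). Treml4, a myeloid receptor of this kind, had 2.50, 2.27 and 1.77 CPM with ABT263, against 5.89, 9.72 and 9.70 CPM with vehicle. Its log2 fold change was -1.95 (SE 0.32). DESeq2 called Treml4 lower (adjusted p = 2.35e-05), as it did 0.523% of all genes with an adjusted p. Clec7a, the beta-glucan receptor Dectin-1, stood at 326, 219.5 and 260.2 CPM with ABT263, against 578, 554 and 408 CPM with vehicle (log2 fold change -0.94, SE 0.26). Tyrobp, the ITAM adaptor that parallels Fcer1g, overlapped between the groups (log2 fold change -0.61, SE 0.49). The list median was -0.12 without ABT263 replicate 2 and -1.09 without ABT263 replicate 1. Of 18 genes listed as inhibitory ITIM receptors, 17 were negative and 0 called (median -0.68, or -0.40 without ABT263 replicate 2). Smallest p-values belonged to the lectins Clec4a3 (-1.13, SE 0.31) and Clec4a1 (-1.82, SE 0.60) and the B cell lectin Cd22 (-1.35, SE 0.48). The motifs of single genes in this list and the ITAM list were not checked.

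Other receptors for immunoglobulin had 9 negative values of 11 tested, 5 without overlap (6.31% of all genes) and 0 called by edgeR (median -1.28, or -0.57 without vehicle replicate 2). Those of smallest p are known from B cells. Fcer2a, the low-affinity IgE receptor, had 0.331, 0.563 and 0.603 CPM with ABT263, against 1.58, 1.62 and 6.95 CPM with vehicle (log2 fold change -2.76, SE 0.73). Fcrla had a log2 fold change of -2.39 (SE 0.66) and Faim3, the IgM receptor, of -2.81 (SE 0.86). DESeq2 called all 3 of these genes lower, where 0.523% of all genes with an adjusted p were. Fcgrt, the neonatal receptor that recycles IgG, stood at 64.9, 170 and 85.5 CPM with ABT263, against 65.2, 103 and 78.4 CPM with vehicle (log2 fold change 0.38, SE 0.39), so the groups overlapped. The immunoglobulin heavy and light chain genes were not analysed here. Igj, the joining chain of secreted IgM and IgA, stood at 2.88, 2.22 and 0.393 CPM with ABT263, against 4.94, 43.4 and 4.84 CPM with vehicle (log2 fold change -3.27, SE 1.15), and without vehicle replicate 2 its log2 fold change was -1.42.

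**Figure D5:**
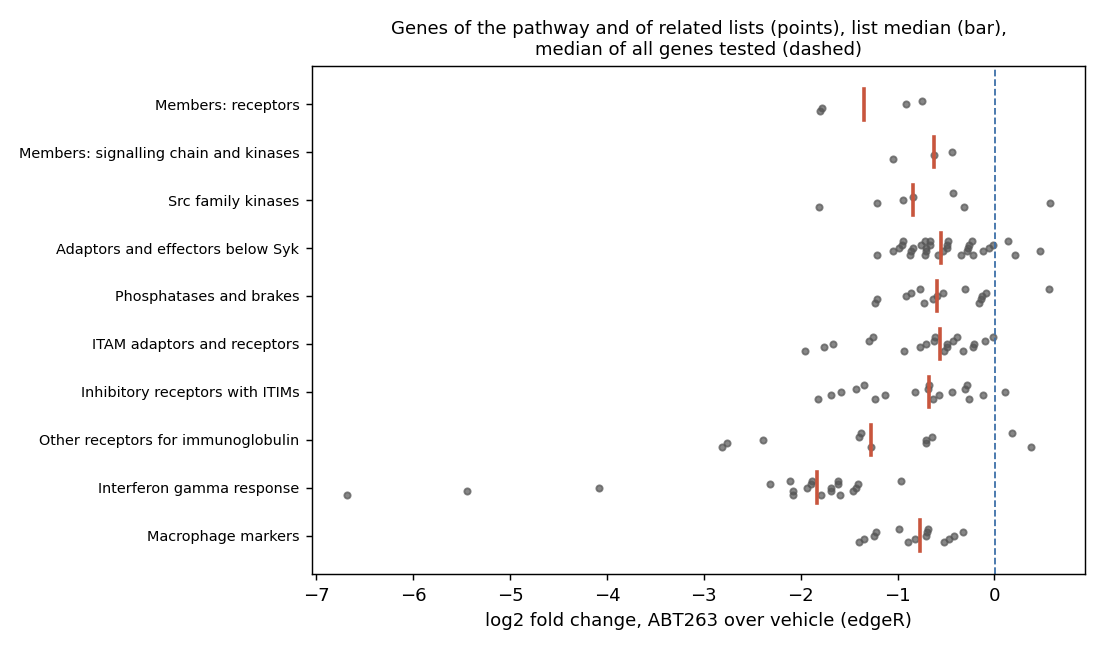
Log2 fold changes (ABT263 over vehicle, edgeR) of single genes as points, with the median of each list as a red bar and the median of all genes tested as a dashed line at 0.001. All 20 interferon gamma response genes and all 14 macrophage markers lie below 0, and the largest positive value among the signalling lists is that of Yes1 (0.58).

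Interferon gamma, a T and NK cell cytokine, is a known inducer of Fcgr1 and Fcgr4 in macrophages. Of 20 interferon gamma response genes, 20 were negative, 1 did not overlap between the groups (6.31% of all genes were lower without overlap) and 0 were called by edgeR (median -1.84). Irf8, a transcription factor of macrophages, was that gene, at 78.1, 53.8 and 90.7 CPM with ABT263, against 156, 310 and 135 CPM with vehicle (log2 fold change -1.43, SE 0.38). Ifng itself stood at 0.021, 0.297 and 0.028 CPM with ABT263, against 0.128, 5.28 and 0.366 CPM with vehicle. For Ifng, as for every member except Syk, the highest library was vehicle replicate 2. Without it the median of the list was -0.032, while the median of the 4 receptors was -0.68, against -1.34 with all libraries. The part of this library's interferon response in the receptor values was not tested.

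Most markers of other cells that carry the receptors also had negative log2 fold changes. Mast cell markers went the other way, 4 positive and 1 negative (median 5.28, but -0.19 without ABT263 replicate 2). Neutrophil markers, 11 of 11 with a negative log2 fold change (median -1.19, or -1.81 without ABT263 replicate 1), summed to 64.7 to 152 CPM with ABT263 and 147.2 to 295 CPM with vehicle. NK cell markers, 7 of 7 negative (median -2.15), summed to 2.71 to 9.04 CPM with ABT263 and 16.1 to 68.3 CPM with vehicle, and Klra4 and Klra8 had 0 counts in all libraries. B cell markers, 9 of 9 negative (median -2.23, or -1.38 without vehicle replicate 3), summed to 31.3 to 86.6 CPM with ABT263 and 110.5 to 198 CPM with vehicle. Monocyte markers went both ways, 6 negative and 3 positive (median -0.24, but -1.35 without ABT263 replicate 1 and -0.53 without ABT263 replicate 3), with Ly6c2, the marker of inflammatory monocytes, at 1.63, 1.62 and 1.23 CPM with ABT263, against 4.53, 12.7 and 4.75 CPM with vehicle. Contractile smooth muscle markers, 9 of 9 positive, summed to 2492 to 16330 CPM with ABT263 and 2718 to 3740 CPM with vehicle. None of these lists had a gene called by edgeR. DESeq2 called 1 neutrophil gene (Csf3r), 1 NK cell gene (Nkg7), 4 B cell genes and 1 monocyte gene (Ly6c2) as lower. Of all genes with an adjusted p, 0.523% were called lower by DESeq2. It called 1 smooth muscle gene (Des) as higher, where 83 of the 15680 genes with an adjusted p were. The part of these cells in the values of the 7 genes was not tested.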

How the data were processed

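The deposited table held raw counts by gene symbol, 1 column for each library. Per the submitters' processing notes, the tools were featureCounts 1.4.6, Subread, TopHat2 2.0.14 and Bowtie2 2.2.6 and the build mm10, with no roles stated. Per the labels' protocols, RNA was prepared with the TruSeq v2 kit, and that kit does not mark strand. The sources used here give neither the annotation nor how reads mapping to more than 1 gene were counted. Discarding such reads would lower the counts of both Fcgr2b and Fcgr3. Groups came from sample titles, and replicates were numbered 1 to 3 in accession order. The labels do not say that samples came from separate animals, so the p-values reflect only how much these samples vary, and that variation may be technical.

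Counts were analysed in R 4.3.3. The edgeR 4.0.16 filter filterByExpr (minimum count 10, minimum total 15) left 15222 genes, scaled by TMM. The edgeR quasi-likelihood F-test had the group as its only term, with Benjamini-Hochberg adjustment over all genes and a threshold of 0.05. The SE was taken as the absolute log2 fold change over the root of F. DESeq2 1.42.0, limma-voom (limma 3.58.1), other scalings and filters, and fits without 1 library were alternatives. Ratios and levels relative to markers used a prior count of 2 before taking log2 CPM, and exact two-sided permutation tests. The procedure was tested on simulated data. The members and lists were chosen with earlier results of these data known. Named genes were the 7 members, up to 3 of smallest p per list and the 5 of closest pattern (mean log2 CPM of at least 1). Genes outside that rule (Tyrobp, Fcgrt, Cd68, Yes1, the NK genes at 0 counts and genes between Fcgr2b and Fcer1g) were named after their values had been seen. Fcmr, Jchain and Adgre1 were found under the older symbols Faim3, Igj and Emr1. Positions are from GENCODE M21 (GRCm38, the assembly of mm10).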

Additional observations from a re-analysis of the deposited data

How the results depend on the processing

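Counting error was at most 2.31% of any member's value, so the spread between libraries, not depth, set the precision. Of 98 member fold changes under 14 alternatives, 97 were negative. The exception was Fgr, at 0.042 without vehicle replicate 2 and ABT263 replicate 2. No alternative called a member. DESeq2 called 165 genes of the whole table, where edgeR called 0 and limma-voom 0 (1276 and 855 at an unadjusted p under 0.05). No paired analysis was possible because the labels give the groups no shared replicate numbers.

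Leaving out 1 library at a time, log2 fold changes ranged from -2.15 to -0.74 for Fcgr1, -0.97 to -0.56 for Fcgr2b, -1.19 to -0.62 for Fcgr3, -2.17 to -0.88 for Fcgr4, -1.35 to -0.53 for Fcer1g, -0.85 to -0.37 for Syk and -0.87 to -0.098 for Fgr. The log2 ratio to Fcgr2b ranged from -0.47 to 0.018 for Fcgr3 and from -0.61 to -0.13 for the summed activating receptors. Relative to macrophage markers, Fcgr1 ranged from -0.97 to 0.028, Fcgr2b from -0.12 to 0.18, Fcgr3 from -0.32 to 0.089, Fcer1g from -0.40 to 0.17, Syk from -0.12 to 0.37 and Fgr from -0.060 to 0.48. List medians ranged from -0.59 to 0.68 for endothelial, -0.19 to 5.97 for mast cell and -0.038 to 8.87 for adipocyte markers.

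When vehicle replicate 2 and ABT263 replicate 2 were both left out, the log2 ratio to Fcgr2b was 0.11 for Fcgr3 and 0.041 for the summed activating receptors, and the values relative to macrophage markers were 0.21 for Fcgr3, 0.29 for Fcer1g, -0.079 for Syk and 0.57 for Fgr. The medians were then -0.59 for mast cell and -0.22 for endothelial markers. Relative to macrophage markers without the C1q genes and Lyz2, Fcgr2b was -0.033. The exon length of every transcript, an alternative chosen after seeing the data, moved the levels per kilobase of Fcgr2b and Syk. The cause of these turns was not tested.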
